A study of Sus scrofa with 4 samples.

Results

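The surface markers of mesenchymal progenitors were followed through the differentiation of porcine subcutaneous preadipocytes. They comprise the 9 genes PDGFRA, PDGFRB, THY1, ENG, NT5E, CD34, CD44, VCAM1 and CD9, which were chosen by symbol among the 16192 protein-coding genes of the deposited files, out of 31567 features in all. Each gene was present once. The cells were isolated with collagenase from the subcutaneous fat of male Chinese Erhualian piglets less than a week old and were not sorted by any surface marker. D0 was the confluent culture in growth medium with serum. D2 followed exposure to dexamethasone, 3-isobutyl-1-methylxanthine and insulin, D4 followed further culture with insulin alone, and D8 followed culture in growth medium without added hormones. For each stage, RNA of 3 piglets was pooled in equal amounts into 1 library, so that a stage and its library cannot be told apart, and no test over samples was possible.

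Mesenchymal stromal cells are usually recognised by antibodies to several surface proteins together, among them THY1 (CD90), ENG (CD105), NT5E (CD73) and CD44, since none of these proteins is restricted to one cell type. PDGFRA and PDGFRB, the receptors for platelet-derived growth factors, mark fibroblast-like progenitors of fat, and PDGFRB is also typical of mural cells around vessels. CD34 is found on adipose stromal cells in tissue, on endothelium and on blood progenitors, and is known to be lost by stromal cells in culture. VCAM1 is an adhesion molecule for integrins and CD9 is a tetraspanin, a small membrane protein that organises other surface proteins.

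The level of each gene was given as FPKM, the fragments on the gene scaled by its length and by the library total, which makes levels comparable between genes. The library totals behind the FPKM, recovered from the values, were 75387428 fragments (D0), 54987801 (D2), 74358922 (D4) and 54128151 (D8). They are not in proportion to the mapped reads that the study reported, and gene ratios on that scale were not computed. The 95% intervals below come from the recovered fragment numbers and cover counting error only. Lists of 4 values follow the order of the stages. From high to low, the genes at D0 were THY1, PDGFRA, CD44, PDGFRB, VCAM1, CD9, NT5E, ENG and CD34. PDGFRA and THY1 held the first and second place in each of the 4 libraries, and together made up 72.5, 83.7, 71.3 and 67.4% of the summed FPKM of the 9 genes. CD34 was the lowest in each library. The sum itself was 249.8, 346.7, 332.6 and 207.0 FPKM. In RNA of a whole culture, fewer cells of a type and less RNA per cell cannot be told apart.

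**Figure D1:**
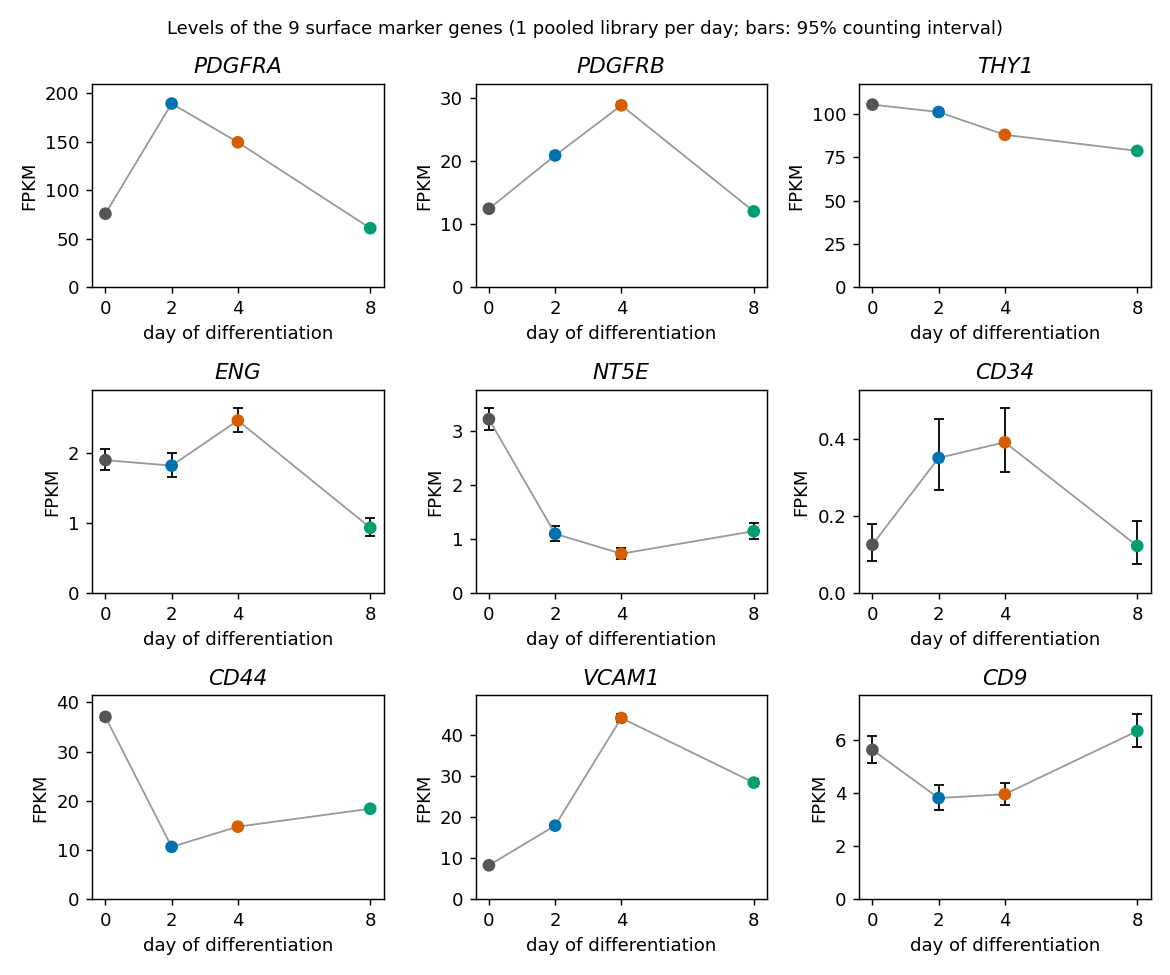
FPKM (vertical axis, from 0, a separate scale for each gene) of the 9 genes against the day of differentiation, with 1 point per pooled library and the 95% counting interval as a bar, which is smaller than the point where it cannot be seen. PDGFRA is highest at D2 with 189.0 FPKM, PDGFRB, ENG, CD34 and VCAM1 are highest at D4, THY1, NT5E and CD44 at D0, and CD9 at D8.

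At the level of RNA, the members ranked unevenly among the expressed mRNAs, and their surface proteins were not measured. THY1 lay above at least 92.5% of the 9191 reliably expressed mRNAs (those with 1 FPKM or more in 3 or all 4 libraries) in every library, and PDGFRA above at least 90.2%. In contrast, ENG lay above 12.4% of these mRNAs at D0 and 1.7% at D8, NT5E above 24.7% at D0 and 0.2% at D4, and CD34 did not pass this filter. The other 8 genes passed it. Markers of other cells were not all absent. The leukocyte gene PTPRC was between 0.0104 and 0.0712 FPKM, and CDH5, the cadherin of endothelial junctions, was listed at 0 at D0, D2 and D8 and at 0.0450 FPKM at D4, whereas CD14 and CD163 of the haematopoietic markers and PECAM1 of the endothelial ones passed the filter, and PECAM1 (2.56 FPKM) was above ENG (1.89 FPKM) at D0.

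The first comparison set D2, after the hormone cocktail, against D0, and without an untreated culture at D2 the cocktail and the time in culture cannot be told apart. A gene was called when it was at least 2-fold higher or lower, computed on log2(FPKM + 0.01) with 0.01 as the pseudocount. Between D0 and D2, 2 of the 8 reliably expressed genes were at least 2-fold higher (PDGFRA and VCAM1), against 6.67% of all reliably expressed mRNAs, and 2 were at least 2-fold lower (NT5E and CD44), against 10.1%. The median log2 ratio of the 8 genes was -0.06, beside -0.03 for all reliably expressed mRNAs. From D2 to D4, when the cocktail was replaced by insulin, VCAM1 alone passed, upwards, against 4.24% of all mRNAs, and none of the 8 genes was at least 2-fold lower, against 0.838%.

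From D4 to D8, 3 of the 8 genes were at least 2-fold lower (PDGFRA, PDGFRB and ENG), against 10.1% of all mRNAs, and none was at least 2-fold higher, against 4.43%. For the middle of the process, D4 with D0, the genes called were PDGFRB and VCAM1 upwards, against 10.4% of all mRNAs, and NT5E and CD44 downwards, against 8.81%. For the whole process, D8 with D0, VCAM1 was called upwards, against 3.60%, and ENG, NT5E and CD44 downwards, against 3.68%. The 3 comparisons with D0 share that library. The median of all reliably expressed mRNAs was -0.21 on the log2 scale between D4 and D8 and -0.18 between D0 and D8, and scaling the libraries to a common median moved these ratios by 0.21 and 0.16. With that scaling, ENG (-0.86) and CD44 (-0.85) no longer reached 2-fold between D0 and D8, and NT5E (-1.32) was the one gene called downwards. With a pseudocount of 1, NT5E (-0.97) did not reach 2-fold either and VCAM1 alone was called, and with 1 FPKM required in all 4 libraries, CD44 was the one gene called downwards. The members closest to the threshold were ENG and CD44 at D8 (2.02-fold and 2.01-fold lower than at D0, just past it) and PDGFRA at D4 (0.98 against D0, just short of it).

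**Figure D2:**
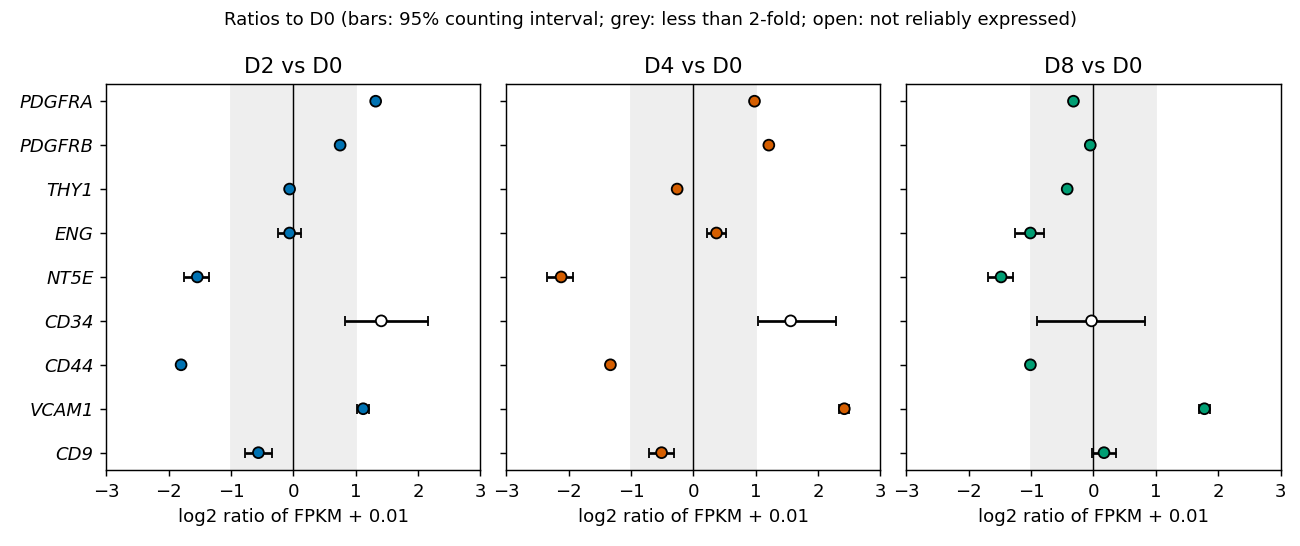
Log2 ratio of FPKM + 0.01 of each gene (horizontal axis) at D2, D4 and D8 against D0, with 95% counting intervals as bars, the range of less than 2-fold in grey, and CD34 as an open point because it was not reliably expressed. VCAM1 lies right of the grey range in all 3 panels and NT5E left of it, whereas PDGFRA and PDGFRB are back near 0 at D8 (-0.32 and -0.05).

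PDGFRA, a receptor for the A, B and C ligands, lies on chromosome 8 from 40966568 to 41021440 (plus strand, Sscrofa11.1). Its level was 75.8, 189.0, 149.2 and 60.8 FPKM, so that the gene was high in the middle stages and low at both ends. The log2 ratio of D2 to D0 was 1.32 (95% counting interval 1.30 to 1.34), larger than that of 96.0% of all reliably expressed mRNAs, and the ratio of D8 to D4 was -1.29 (-1.32 to -1.27). PDGFRB, the receptor with a preference for the B and D ligands, lies on chromosome 2 from 151155753 to 151192818 (minus strand). Its levels were 12.4, 20.9, 28.8 and 12.0 FPKM. This gene was also highest in the middle, but at D4 rather than D2, and its levels at D0 and D8 overlapped in their counting intervals. On the log2 scale, D4 exceeded D0 by 1.21 (1.17 to 1.26), and the ratio of D8 to D4 was -1.26 (-1.31 to -1.21). PDGFRA exceeded PDGFRB 6.09-, 9.05-, 5.18- and 5.06-fold, a ratio within each library that no scaling between libraries can change.

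The genes for the ligands of these receptors were not called between D0 and D2, where 6.67% of all mRNAs were called upwards and 10.1% downwards. PDGFA had 1.90, 1.14, 0.948 and 1.64 FPKM. PDGFD, a ligand of PDGFRB, had 13.7, 8.51, 6.40 and 11.3 FPKM, and was thus lowest at D4, the stage at which PDGFRB was highest. It was the one ligand called at D4 (log2 ratio to D0 of -1.09), against 8.81% of all mRNAs called downwards. At this stage 2 ligands were called with median-ratio scaling and 0 with a pseudocount of 1. PDGFC, a ligand of PDGFRA, had 2.35, 1.61, 2.10 and 5.37 FPKM and was called upwards at D8 (1.19), against 3.60% of all mRNAs. This call was lost with a pseudocount of 1. PDGFB was not analysed here.

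VCAM1, the counter-receptor of the integrin of alpha 4 and beta 1 chains, lies on chromosome 4 from 117496914 to 117511211 (minus strand). Its levels were 8.28, 18.0, 44.2 and 28.5 FPKM. The D0 library was the lowest and D4 the highest, and no counting intervals of the 4 libraries overlapped. Against D0, VCAM1 was 2.17-fold higher at D2, 5.33-fold at D4 and 3.43-fold at D8, with log2 ratios of 1.12 (1.02 to 1.21), 2.42 (2.34 to 2.50) and 1.78 (1.70 to 1.87). It had the widest range over the stages of the 9 genes, 2.42 on the log2 scale, beside a median of 0.72 for all reliably expressed mRNAs.

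Integrins that bind VCAM1 or THY1 were examined beside them. ITGA4, the alpha 4 chain, had 0.527, 0.872, 1.17 and 1.52 FPKM, and did not pass the filter on low values. Of the 4 reliably expressed genes of this list, ITGB3 was called downwards at D2 (4.42 FPKM at D0, 1.93 at D2) and ITGB5 upwards at D4 (7.19 FPKM at D0, 14.4 at D4). Among all mRNAs, 10.1% were called downwards at D2 and 10.4% upwards at D4. The ratio of ITGB5 lay at the threshold and was lost with a pseudocount of 0.1. VCAM1 is also a gene of activated endothelium and of macrophages in some tissues. Of the 10 endothelial markers examined, 9 were listed and PECAM1 alone was reliably expressed, and their summed level was 6.58, 2.39, 2.84 and 3.78 FPKM, lower in the 3 stages in which VCAM1 was higher. The 6 listed of 10 haematopoietic markers summed to 3.59, 7.40, 8.95 and 4.38 FPKM, of which CD14, a receptor for bacterial lipopolysaccharide, made up 3.14, 5.64, 7.54 and 2.78 FPKM. Most of the endothelial sum came from PECAM1 and ERG, a transcription factor (3.72, 0.981, 0.850 and 1.70 FPKM). CD163, a scavenger receptor of macrophages, had 0.270, 1.42, 1.01 and 1.38 FPKM. The part of such cells in the level of VCAM1 was not tested.

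CD44, the main receptor for hyaluronan, lies on chromosome 2 from 25788699 to 25884209 (minus strand). It had 37.0, 10.6, 14.7 and 18.4 FPKM. The D0 library stood above the others, D2 was the lowest, and the order of the later stages was upwards without reaching D0. CD44 was 3.48-fold lower at D2 than at D0 (log2 ratio -1.80, 95% counting interval -1.85 to -1.75), 2.51-fold lower at D4 and 2.01-fold lower at D8. Within the libraries, the ratio of VCAM1 to CD44 was 0.224, 1.69, 3.00 and 1.55, so that the order of the 2 adhesion genes at D0 was turned around in the 3 later stages.

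Among the genes of the hyaluronan system, 8 were reliably expressed. At D2, 5 of them were at least 2-fold lower (3 with equal sums over protein-coding genes), against 10.1% of all mRNAs. Another 1 was at least 2-fold higher, against 6.67%. The median log2 ratio was -1.09, beside -0.03 for all mRNAs. Those that were lower included EZR and MSN, which encode ezrin and moesin, the proteins that link the tail of CD44 to actin. EZR had 47.7, 12.4, 16.02 and 45.3 FPKM. MSN had 196.4, 47.5, 46.4 and 100.7 FPKM. Both were low at D2 and D4 like CD44, and EZR was nearer to its D0 level at D8 than CD44 was. RDX, the third gene of this family, was not called at any stage against D0 (57.6, 38.7, 41.6 and 41.9 FPKM). CEMIP, which is needed for hyaluronan breakdown, was called downwards at all 3 stages, but not at D2 with equal sums (56.1, 26.6, 16.7 and 11.14 FPKM). HMMR, another hyaluronan receptor, had 9.99, 2.34, 6.57 and 6.45 FPKM, and SPP1, osteopontin, a ligand of CD44, had 27.0, 12.5, 3.36 and 13.8 FPKM. MMP14, a membrane protease that can cut CD44, was the one gene called upwards, with 125.0, 271.2, 288.3 and 86.9 FPKM.

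NT5E, the ectoenzyme that turns AMP outside the cell into adenosine, lies on chromosome 1 from 54400786 to 54450743 (plus strand). It had 3.22, 1.099, 0.731 and 1.15 FPKM. Like CD44 it was highest at D0, but its lowest library was D4, and D2 and D8 overlapped in their counting intervals. It was 2.91-fold lower at D2, 4.35-fold lower at D4 and 2.79-fold lower at D8, with log2 ratios of -1.54 (-1.75 to -1.35), -2.12 (-2.35 to -1.93) and -1.48 (-1.69 to -1.29). With a pseudocount of 1 these ratios were -1.01, -1.28 and -0.97, the last short of 2-fold, and a filter of 1 FPKM in all 4 libraries left the gene out. A lncRNA on the opposite strand, LOC102157437, shares 214 bases with the NT5E gene and had at most 0.106 FPKM in any library. THY1, another marker of the same cells in the usual panels, exceeded NT5E 32.8-fold at D0 and 120.3-fold at D4.

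Of the 10 genes of the adenosine system, 9 were listed and 3 were reliably expressed, and none of these 3 was called against D0. Among all mRNAs, 6.67, 10.4 and 3.60% were called upwards at D2, D4 and D8, and 10.1, 8.81 and 3.68% downwards. ADORA2B, an adenosine receptor, had 5.66, 3.27, 3.61 and 2.87 FPKM. Among the genes under the filter, ADORA1, the receptor that lowers cyclic AMP and inhibits lipolysis in fat cells, had 0.0870, 0.471, 2.23 and 1.88 FPKM. ADORA2A, which raises cyclic AMP, had 0.914, 0.184, 0.00341 and 0.576 FPKM. ADORA1 was thus high and ADORA2A low at D4, where NT5E was lowest. ENTPD1, the enzyme that provides AMP from ATP, had 0.183, 0.123, 0.977 and 1.25 FPKM.

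THY1, a small glycoprotein anchored in the membrane by lipid, lies on chromosome 9 from 46607022 to 46612691 (minus strand). Its levels were 105.4, 101.2, 88.0 and 78.8 FPKM. The order went down from stage to stage, but the whole range was 1.34-fold, and 21.8% of all reliably expressed mRNAs had a smaller one. No ratio of THY1 reached 2-fold, and the direction depended on the scaling for D2 with D0 (log2 ratio -0.06, or 0.05 with equal sums over protein-coding genes) and for D8 with D4 (-0.16, or 0.05 with a common median).

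ENG, a co-receptor for ligands of the TGF-beta family, lies on chromosome 1 from 268309379 to 268343861 (minus strand) and shares 19 bases with FPGS on the opposite strand. It had 1.89, 1.82, 2.46 and 0.933 FPKM. The levels at D0 and D2 overlapped in their counting intervals, whereas D8 was below the other 3 libraries. The log2 ratio of D8 to D4 was -1.39 (-1.62 to -1.18), lower than that of 96.7% of all reliably expressed mRNAs, and with a pseudocount of 1 the ratio was -0.84, short of 2-fold.

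TGFBR3, betaglycan, which is related to ENG in its structure, had 3.37, 23.3, 22.7 and 3.27 FPKM. It was called upwards at D2 and D4 (log2 ratios 2.79 and 2.75) and was back at its D0 level at D8. ACVRL1, the receptor to which ENG brings BMP9, was called downwards at D2 (2.24 FPKM at D0, 1.04 at D2). The signalling receptors TGFBR1, TGFBR2 and BMPR2 were not called against D0 at any stage. ID1, a target gene of BMP signals, had 93.9, 177.8, 303.2 and 51.0 FPKM and was called upwards at D4 (1.69). Of the 9 genes of this list, 1 was called upwards and 1 downwards at D2 (2 and 0 with equal sums over protein-coding genes), 2 and 0 at D4, and 0 and 1 at D8, the last being ID3 (792.9, 484.1, 546.4 and 344.6 FPKM). The shares of all mRNAs called upwards and downwards were 6.67% and 10.1% at D2, 10.4% and 8.81% at D4, and 3.60% and 3.68% at D8.

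CD34, a sialomucin, lies on chromosome 9 from 134912793 to 134937763 (plus strand). It had 0.126, 0.351, 0.391 and 0.123 FPKM, which came from 30, 61, 92 and 21 fragments. The levels fell into a lower pair, D0 and D8, and a higher pair, D2 and D4, and the counting intervals overlapped within each pair but not between them. At this depth, the log2 ratio of D4 to D0 had a counting interval from 1.03 to 2.28 around a value of 1.56, and the ratio of D2 to D0 one from 0.83 to 2.16 around 1.41. CD34 was not among the genes called because of its low level. Of its relatives, PODXL2 had 1.81 FPKM at D0 and 2.92 at D2, whereas PODXL and EMCN were at 0.0719 FPKM or lower in every library.

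CD9, a tetraspanin of the cell surface and of extracellular vesicles, lies on chromosome 5 from 64420177 to 64459783 (minus strand). Its levels were 5.62, 3.81, 3.95 and 6.33 FPKM. D2 and D4 were low and D0 and D8 high, with overlapping counting intervals within each pair. No ratio reached 2-fold, and the whole range over the stages was 1.66-fold (D8 over D2). Of the 9 reliably expressed tetraspanins and partners of CD9, CD151, which binds laminin receptors, was called downwards at D2 and D4 (224.9, 68.5, 41.3 and 115.6 FPKM). It was the one gene of this list called at D2. TSPAN4 was called upwards at D4 (1.54, 1.99, 3.61 and 1.94 FPKM) and TSPAN14 downwards at D8 (3.37, 1.88, 2.69 and 1.47 FPKM). Against D0, 10.1, 8.81 and 3.68% of all mRNAs were called downwards at D2, D4 and D8, and 10.4% upwards at D4. CD63, a tetraspanin of lysosomes and vesicles, had 724.6, 561.1, 546.0 and 759.0 FPKM, also with its lower values at D2 and D4, and CD81 had 29.2, 33.1, 46.4 and 28.8 FPKM.

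The shapes over the 4 libraries were then compared among the 9 genes, as the root mean square difference of log2(FPKM + 0.01) after each gene was centred on its own mean. The most similar pair was PDGFRA and CD34 (0.22), followed by PDGFRB and CD34 (0.27) and by PDGFRA and PDGFRB (0.34). The shape of CD34 rests on 30, 61, 92 and 21 fragments, and the order of these pairs was not tested against its counting error. NT5E and CD44 differed by 0.41, and NT5E and VCAM1 were the least similar (1.65). With 4 points per gene, the values describe these libraries and no more. Of all reliably expressed mRNAs, 36.5, 16.7, 37.3 and 9.5% were highest at the respective stages. The lowest library was D8 for PDGFRA, PDGFRB, THY1, ENG and CD34, 5 of the 9 genes, and for 37.5% of all reliably expressed mRNAs.

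The nearest genes in shape were searched among 4771 reliably expressed mRNAs with at least 10 FPKM in one library. For PDGFRA it was HMOX1, heme oxygenase 1 (39.7, 115.6, 83.4 and 34.2 FPKM, at a difference of 0.080), followed by PCSK5, a protease that cuts proproteins (0.101). For CD44 they were ACTN1, alpha-actinin (127.5, 35.7, 54.5 and 63.7 FPKM, 0.052), and MPRIP, a partner of myosin phosphatase (0.070). The nearest to VCAM1 were RETSAT, retinol saturase (11.3, 26.5, 60.1 and 34.5 FPKM, 0.102), and HSD17B12, an enzyme of fatty acid elongation (0.122). NT5E was nearest to RRAS2 (45.8, 15.7, 12.4 and 17.9 FPKM, 0.101) and ENG to FDPS, an enzyme of isoprenoid synthesis (94.7, 89.1, 122.4 and 48.0 FPKM, 0.022). The second nearest were CXCL16 (0.104) for NT5E and ATP6V0C (0.054) for ENG. PDGFRB was nearest to DEXI (0.023) and ARHGAP31 (0.047), and THY1 to PARK7 (0.017) and NMRAL1 (0.025). CD34 was nearest to SLC26A2 (0.062) and PAXBP1 (0.078), and CD9 to ALDOA (0.024) and COPS5 (0.037). With 4 points per gene and 4771 candidates, these matches describe the libraries only. Their order was not tested against counting error, which is largest for members with few fragments, such as CD34 and ENG (21 and 221 at D8).

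Other surface markers used for such progenitors were also called in both directions, with medians on the lower side at D2 and D4. Of 9 reliably expressed ones, 2 were called upwards and 3 downwards at D2. The numbers were the same at D4, though not all the genes were, and 1 was called in each direction at D8. Of all mRNAs, 6.67% were called upwards and 10.1% downwards at D2, 10.4% and 8.81% at D4, and 3.60% and 3.68% at D8. The median log2 ratios to D0 were -0.86, -0.72 and -0.09, beside -0.03, 0.06 and -0.18 for all mRNAs. ALCAM (CD166) had 0.595, 2.36, 2.74 and 2.54 FPKM and was called upwards at all 3 stages. PDPN, podoplanin, was called upwards at D2 (3.38, 6.92, 6.14 and 3.79 FPKM). Its log2 ratio of 1.03 was just past the threshold, and the call was lost with a pseudocount of 1, which left 1 upward call in this list. ANPEP (CD13), an aminopeptidase, had 15.4, 22.4, 36.9 and 15.0 FPKM, with the stages in the same order as for PDGFRB, and was called upwards at D4. CD248, endosialin, was called downwards throughout (7.80, 2.28, 2.21 and 1.44 FPKM), and ITGB1, the integrin beta 1 chain, was called downwards at D2 and D4 (318.8, 126.1, 104.4 and 207.1 FPKM). DPP4, a peptidase used as a marker of early fat progenitors, had 8.64, 4.76, 2.57 and 4.86 FPKM and was called downwards at D4 (log2 ratio -1.74). F3, tissue factor, had 17.6, 4.51, 11.01 and 20.3 FPKM and was called downwards at D2. ICAM1 was not called (10.2, 6.06, 5.47 and 8.26 FPKM). Under the filter, CSPG4 (3.85 FPKM at D0, 0.338 at D2) and MCAM (0.777 and 0.0787) were lower at D2. NGFR, LEPR and BST1, also under it, were higher at D2 than at D0, at 0.0738 FPKM or lower. These levels came from few fragments, 0 at D0 and 7 at D2 for NGFR, 2 and 27 for LEPR, and 0 and 1 for BST1. BST1 was highest at D8 (0.121 FPKM, 15 fragments). CD55, under the filter too, was lower at D2 (0.110 FPKM at D0, 0.0855 at D2).

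The markers of other cell types moved with these stages as well. Of 14 reliably expressed adipocyte markers, 13, 14 and 13 were at least 2-fold higher than at D0 in the 3 later stages, against 6.67, 10.4 and 3.60% of all mRNAs. None was at least 2-fold lower, against 10.1, 8.81 and 3.68%. All 16 adipocyte markers summed to 166.0, 795.3, 2981 and 2992 FPKM. From D4 to D8, 6 of the 14 were at least 2-fold lower, as PDGFRA, PDGFRB and ENG were, against 10.1% of all mRNAs. None of the 14 was at least 2-fold higher, against 4.43% (median log2 ratio -0.63). The lower ones were PLIN1, PPARG, CEBPA, PCK1, LIPE and PNPLA2. PPARG, the main regulator of fat cell formation, had 2.95, 26.4, 51.9 and 25.8 FPKM, and its log2 ratio of D8 to D4 (-1.01) was just past the threshold. The calls of this list from D4 to D8 were not repeated with other pseudocounts or scalings. Under the filter, CIDEC went the other way, from 5.01 FPKM at D4 to 54.6 at D8, and LEP from 0.0269 to 0.314. FABP4, a fatty acid carrier, made up the largest part of the sum at D8 (77.5, 200.7, 853.3 and 1557 FPKM). Mural cell markers, which share PDGFRB, summed to 6220, 749.3, 587.9 and 4833 FPKM, and their contractile genes ACTA2, TAGLN, CNN1 and DES were low at D2 and D4 when PDGFRB was high. ACTA2, smooth muscle actin (2907, 324.1, 225.0 and 2762 FPKM), and TAGLN (2767, 297.4, 277.1 and 1987 FPKM) made up most of that sum in each library. CNN1 (94.3, 4.22, 2.39 and 24.2 FPKM) and DES (435.8, 37.7, 4.05 and 35.7 FPKM) were still called downwards at D8. In contrast, ABCC9 and KCNJ8, the subunits of a potassium channel typical of pericytes, were called upwards at D2 and D4 (ABCC9 with 10.3, 73.3, 68.6 and 15.4 FPKM), in the same stages as PDGFRA was high. Proliferation markers summed to 85.0, 8.70, 36.9 and 53.1 FPKM, and the 5 reliably expressed ones were all called downwards at D2, against 10.1% of all mRNAs. The 4 listed of 6 epithelial and mesothelial markers summed to between 3.53 and 4.74 FPKM, and of 4 muscle progenitor markers MYOG alone was listed, at 0.0269 FPKM at D2 and at 0 in the other libraries. How much the share of these cell types contributes to the levels of the surface markers was not tested.

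**Figure D3:**
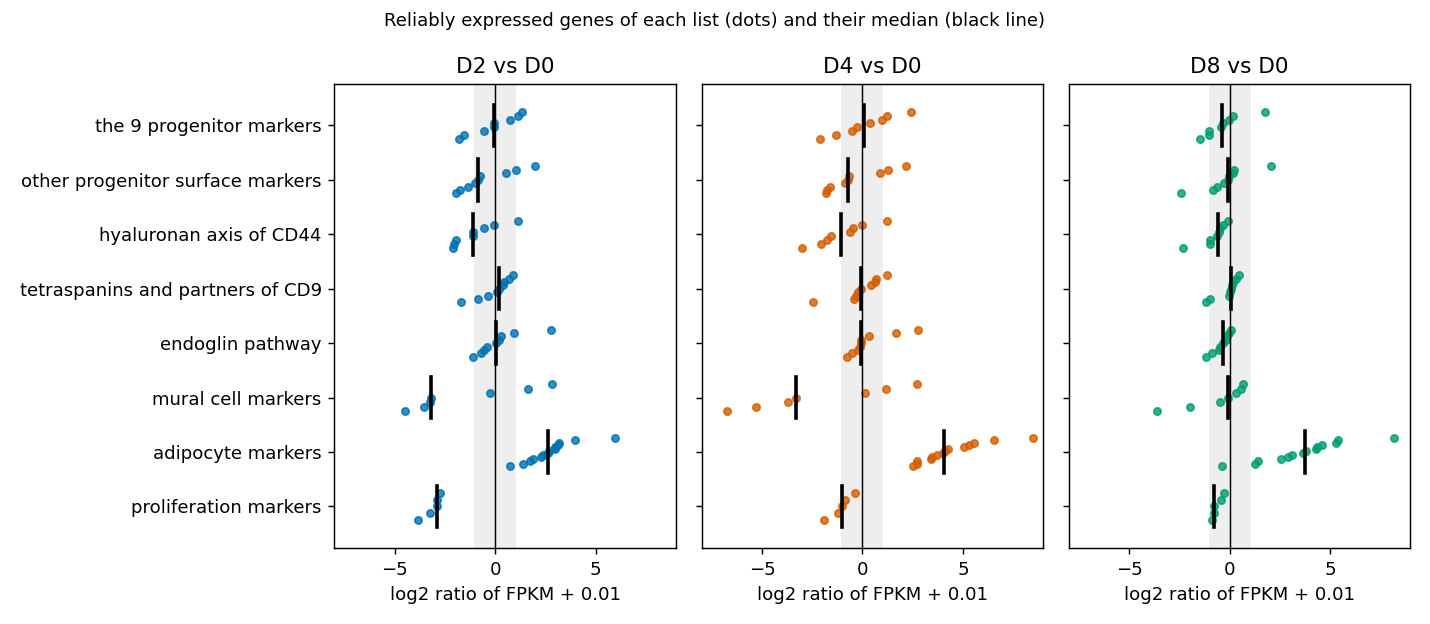
Log2 ratio of FPKM + 0.01 to D0 (horizontal axis) at D2, D4 and D8 for the reliably expressed genes of 8 lists, with 1 dot per gene, the median as a black line and the range of less than 2-fold in grey. The progenitor markers, without CD34, lie on both sides of 0 (medians -0.06, 0.06 and -0.37), the adipocyte markers lie to the right except PCK1 at D8 (medians 2.65, 4.07 and 3.73) and the proliferation markers to the left, furthest at D2 (-2.90).

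The same files list circRNAs, RNAs closed into a ring by back-splicing, which were not used to choose the genes. They were assigned to a gene when both ends of the junction lay within it on the same strand. Their unit, SRPBM, counts reads spanning the back-splice site, scaled to the mapped reads of the library, and a single read was worth between 5.94 SRPBM (D4) and 8.40 SRPBM (D8). Of the 9 genes, 2 had circRNAs, PDGFRA with 9 and CD44 with 1, out of 8623 circRNAs in the series. For comparison, 31.9% of the reliably expressed mRNAs had at least 1 circRNA and 1.25% had 9 or more. The other 7 genes had no junction reads listed, which is not evidence of absence, since circRNAs with fewer than 2 reads were not kept by the authors.

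The 9 circRNAs of PDGFRA lay between positions 40977592 and 41009847 on chromosome 8 and shared splice sites, with 3 of them ending at 40985923. One circRNA, ssc_circ_0004250 (40997380 to 40999584), was found in all 4 libraries, with 6, 9, 3 and 6 reads. The one with the most reads in any library, ssc_circ_0004247 (40977592 to 40985923), had 12 reads at D0 and 17 at D4 and was listed at 0 at D2 and D8. Of the others, 2 reached 10 reads in a single library, ssc_circ_0004251 (40998201 to 40999584) with 14 reads at D2 alone and ssc_circ_0004253 (41002786 to 41005286) with 4 at D2 and 14 at D4. Thus the forms differed between the libraries, on numbers of reads that are small for each form.

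Summed over the 9 forms, PDGFRA had 27, 31, 36 and 21 junction reads, or 173.3, 225.2, 213.7 and 176.4 SRPBM. The order of the stages was that of the mRNA at D2 and D4, but the differences were within the counting error. From D0 to D2 the circRNA sum changed 1.30-fold with a 95% counting interval from 0.751 to 2.26, while the mRNA was 2.49-fold higher. From D4 to D8 the circRNA sum was 0.825 times as high (0.458 to 1.45) and the mRNA 0.408 times. SRPBM and FPKM are scaled to different library totals, so the folds of circRNA and mRNA are not directly comparable. The circRNA of CD44, ssc_circ_0001119 (25805206 to 25811996 on chromosome 2), had 4, 4, 0 and 7 reads. At D4 the limit set for a count of 0, 3 reads, was 17.8 SRPBM, and the 95% counting interval reached 3.7 reads, or 21.9 SRPBM. A listed 0 may also stand for 1 read, since circRNAs with fewer than 2 were not kept.

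**Figure D4:**
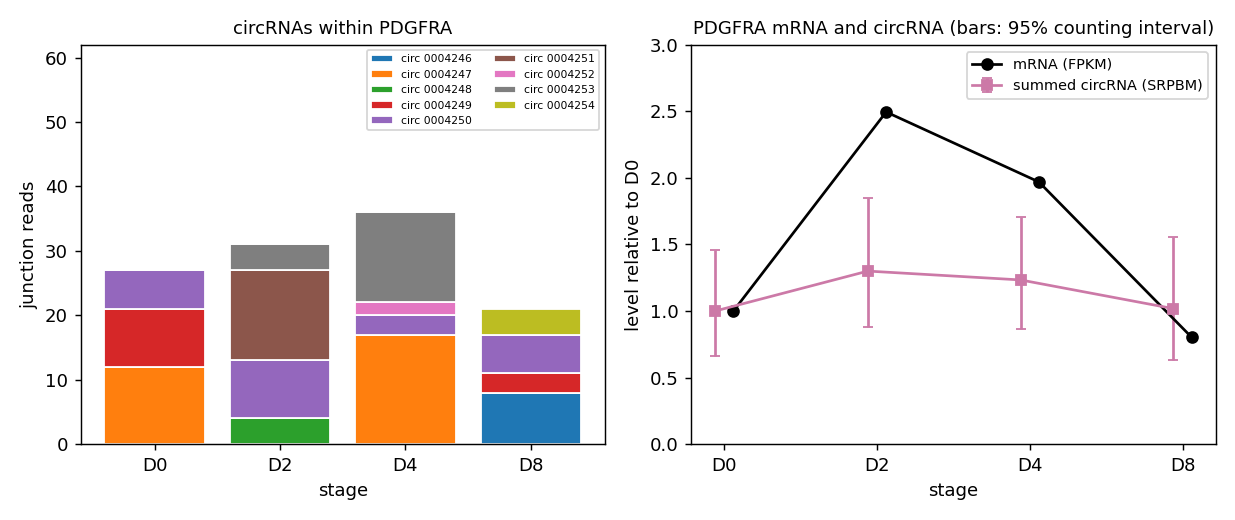
Left, junction reads (vertical axis, from 0) of the 9 circRNAs within PDGFRA in each library, stacked by circRNA. Right, the summed circRNA level in SRPBM (squares, with the 95% counting interval of each level) and the mRNA level in FPKM (circles), both divided by their value at D0, where the mRNA reaches 2.49 at D2 and the circRNA sum 1.30. SRPBM and FPKM are scaled to different library totals.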

How the data were processed

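RNA-Seq of rRNA-depleted, strand-specific libraries was performed by the authors, with 1 library per stage. Per the labels and the study's methods, reads were aligned to Sus scrofa 11.1 with HISAT2 2.0.5, and circRNAs were called with BWA-MEM and CIRI from at least 2 junction reads. The tool for counting is not given in the sources used here. The authors deposited FPKM for 22944 genes and, in the same column, SRPBM for 8623 circRNAs, without counts.

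Fragment numbers were recovered from the deposited FPKM alone. The commonest ratio of 2 libraries among genes below 3 FPKM gave the relative library totals, the largest divisor that left whole gene lengths for most of 400 genes (81.0%, within 0.02 of a whole number) gave the totals, and the shortest length at which the 4 values were whole gave the fragments. The true numbers could be whole multiples, which would narrow the intervals. SRPBM values were whole junction reads (100%, same tolerance), in all 53207 (D0), 43989 (D2), 51074 (D4) and 37480 (D8).

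Reliable expression and the ratio of 2 followed the study's methods, on log2(FPKM + 0.01), without a test. Intervals (95%) of levels are exact Poisson and those of ratios exact binomial, and cover counting error only. The members and the 15 other gene lists were chosen with earlier results of these data known. All 9 members were named, with list genes that passed 2-fold or were high, the 2 nearest genes in shape, and circRNAs of at least 10 reads in one library or the highest of a gene. Of the adipocyte and proliferation lists, some genes are given by counts only. Some list genes under the filter were named after their values were seen. In the list of TGF-beta family receptors and partners, 1 gene is not reported here. Gene positions were those of the files. Alternatives were other pseudocounts, filters, scalings and a ratio of 1.5. Scripts used Python 3.11.15, numpy 2.4.6, pandas 2.3.3 and scipy 1.17.1 and were tested on simulated data.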

Additional observations from a re-analysis of the deposited data

How the results depend on the processing

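The number of genes called was within 1.5 times the reported one in 31 of 35 alternatives over the 5 comparisons. For D8 with D0 (4 genes), it was 1 with a pseudocount of 1 (VCAM1), 2 with FPKM of at least 1 in all 4 libraries (CD44 and VCAM1) and 2 with median-ratio scaling (NT5E and VCAM1), and for D8 with D4 (3 genes) it was 6 at a ratio of 1.5. No called ratio of the 9 genes turned in direction, and 7 of 180 ratios under other pseudocounts or scalings changed sign, all of them ratios that were not called. Among the lists, for the comparisons with D0, 164 of 180 counts kept within 1.5 times. With a pseudocount of 1, the count fell to 0 for integrin partners (D2 and D4 with D0), endothelial markers (D2), haematopoietic markers (D2 and D8), PDGF ligands (D4 and D8) and tetraspanins (D8), and to 1 for tetraspanins, haematopoietic markers and proliferation markers (D4) and for TGF-beta family receptors and partners (D2). Integrin partners at D4 also fell to 0 with a pseudocount of 0.1 and with median-ratio scaling, under which 2 PDGF ligands were called at D4, and 2 tetraspanins were called at D2 with equal sums over protein-coding genes. A larger pseudocount shrinks the ratios of low genes by construction, and for the scalings the cause was not tested. No paired analysis was possible because each stage is 1 library, and for the same reason no library could be left out. The order of the genes within a library does not depend on scaling. Depth limits CD34 and the circRNAs most.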
